A study of Mus musculus with 240 samples.

Results

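The genes of the major histocompatibility complex (MHC) and its antigen presentation pathway were followed through obesity in 6 mouse tissues. The set was chosen by name: every gene whose symbol starts with H2-, the mouse MHC, together with B2m, Cd74, Ciita, Tap2, Tapbp and Nlrc5. It held 43 of the 19896 genes that carried a symbol on the array, measured by 51 probes. Tap2 and Nlrc5 were named for the set, but the probe annotation used here gave neither of them a probe.

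The study profiled pancreatic islets, liver, gonadal adipose tissue, gastrocnemius muscle, soleus muscle and hypothalamus from male mice of the C57BL/6 (B6) and BTBR strains, lean or obese through the ob mutation of leptin, at 4 and at 10 weeks of age. Each of the 48 groups (tissue, strain, lean or ob, age) held 5 mice, 240 arrays in all, and the labels name no other treatment. The arrays came from 43 mice, of which 36 gave all 6 tissues, so that the tissues are not independent animals. The ob mutation is present in every cell from birth, and a lean mouse here is a mouse labelled lean, with no statement in the labels of whether it carries a copy of the mutation.

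MHC class I molecules, a heavy chain paired with beta-2 microglobulin, show peptides made inside the cell to CD8 T cells and are present on most nucleated cells. Class II molecules, an alpha and a beta chain that travel with the invariant chain Cd74 and are loaded with peptide by H2-DM, show peptides taken up from outside to CD4 T cells and are largely restricted to macrophages, dendritic cells and B cells. Interferon gamma raises both arms, class II through the transactivator Ciita. The H2 region also holds many class Ib genes of the Q, T and M families, whose functions range from ligands of innate receptors to chaperones of pheromone receptors.

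Every value is the log2 ratio of a mouse to a pool of RNA from its own strain and tissue, which the labels give as 20 mice (19 for BTBR liver; the pool of BTBR adipose tissue is labelled as an ob control pool). Differences are ob minus lean on this log2 scale, within a strain, tissue and age. Levels were not compared between B6 and BTBR, because the strains carry different MHC haplotypes and had separate pools, and levels were not compared between genes. The direction of the deposited ratio is not stated, and mouse over pool is the likely one. A pool is an arithmetic mean, so log ratios of variable probes to it should average below 0, and most of the 1000 most variable probes did so in 12 of 12 strain and tissue sets, while the 200 most variable did so in 11 of 12. With that direction leptin (Lep) ranged from -3.13 to -1.16 on the lean adipose arrays and from 0.04 to 1.26 on the ob adipose arrays. With the opposite direction every sign below would turn. A ratio to a pool of the same tissue does not show how strongly a gene is expressed, so the labelled tissues could not be checked against their marker genes. In whole tissue, fewer cells of a type and less RNA per cell cannot be told apart.

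One lean animal stood apart. Mouse 26, a lean BTBR mouse of 10 weeks, gave the highest value of the 5 lean mice for 26 of the 43 MHC genes in islets (60.5%), 28 in liver (65.1%), 32 in adipose tissue (74.4%), 27 in gastrocnemius, 27 in soleus and 18 in hypothalamus (41.9%). Among all genes its share of highest values was 16.1% in islets, 26.4% in liver, 31.4% in adipose tissue, 15.2% in gastrocnemius, 16.2% in soleus and 21.5% in hypothalamus. The mean of H2-Aa, H2-Ab1, H2-Eb1 and Cd74 was 2.16 in its gastrocnemius against -0.22 to 0.50 in the other 4 lean mice. In liver the same mean was 1.84 against -0.47 to 0.60. On its hypothalamus array the class II mean of 0.25 lay inside the range of the others (-0.11 to 0.37), while the mean of H2-K1, H2-D1 and B2m lay above it (0.49 against 0.00 to 0.21).

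Outside hypothalamus, the height of mouse 26 extended to interferon response genes and to markers of macrophages and lymphocytes, except B cell markers in soleus. In hypothalamus its interferon gamma mean (0.531) lay inside the range of the other lean mice (-0.066 to 0.563). So did its type I interferon mean (0.126 against -0.056 to 0.163) and its macrophage mean (-0.016 against -0.154 to -0.002) there. Its B cell mean there (-0.056 against -0.086 to 0.003) lay inside as well. Its hypothalamic T cell mean (0.087 against -0.075 to 0.007) and NK cell mean (0.008 against -0.197 to -0.027) lay above the other lean mice. The mean of 11 interferon gamma response genes was 1.904 in its soleus, where the other 4 lean mice ranged from -0.34 to -0.13, and 1.70 in its adipose tissue, where they ranged from -0.78 to -0.34. Its T cell markers averaged 0.72 in liver (others -0.11 to 0.29), 0.94 in adipose tissue (others -0.39 to -0.07) and 0.45 in gastrocnemius (others -0.01 to 0.10). Its macrophage markers averaged 0.72 against -0.36 to 0.16 in liver, 0.51 against -0.28 to -0.11 in gastrocnemius and 0.10 against -0.85 to -0.39 in adipose tissue. Its 6 leukocyte genes averaged 1.06 against -0.29 to 0.21 in liver, 0.65 against -0.10 to -0.03 in gastrocnemius and -0.05 against -1.39 to -0.90 in adipose tissue. The labels record nothing that sets this animal apart, and the source of its values was not tested. Counts of called MHC genes in BTBR at 10 weeks, and the values of many genes, are therefore given with and without it.

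Promoter windows from 250 bases before to 50 bases after the transcription start (RefSeq, mouse build GRCm38.p6, the C57BL/6J genome, so the BTBR haplotype is not shown) were found for 31 of the 43 genes. Those of H2-Aa and H2-Eb1 are shown because these class II chains moved together. Those of H2-K1 and H2-D1 are shown because these class I chains moved with them in muscle and, in BTBR, against them in islets. That of H2-Q7 is shown because it was the class I gene with the largest fall in muscle at 10 weeks. The windows are chr17:34287774-34288073 (minus strand), chr17:34305617-34305916 (plus), chr17:34000298-34000597 (minus), chr17:35262844-35263143 (plus) and chr17:35438905-35439204 (plus). Capitals mark exact matches on either strand to 4 motifs, which do not overlap one another in these windows: the Y box CTGATTGG (CCAATCAG on the other strand), the X box core CAACNGATG, enhancer A GGGATTCCC and the interferon response element AAGTGAAAC (GTTTCACTT on the other strand).
H2-Aa: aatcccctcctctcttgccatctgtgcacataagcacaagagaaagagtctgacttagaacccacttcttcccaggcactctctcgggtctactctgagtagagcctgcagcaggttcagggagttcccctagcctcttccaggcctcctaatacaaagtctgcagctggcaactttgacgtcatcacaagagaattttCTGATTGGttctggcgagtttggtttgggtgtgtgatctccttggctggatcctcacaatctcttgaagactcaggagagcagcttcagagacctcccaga
H2-Eb1: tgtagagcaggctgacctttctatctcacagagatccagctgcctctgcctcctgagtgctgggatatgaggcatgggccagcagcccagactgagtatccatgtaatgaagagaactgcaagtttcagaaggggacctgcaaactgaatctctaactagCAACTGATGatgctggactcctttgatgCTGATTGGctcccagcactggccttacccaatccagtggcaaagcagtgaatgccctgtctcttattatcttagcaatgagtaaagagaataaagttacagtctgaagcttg
H2-K1: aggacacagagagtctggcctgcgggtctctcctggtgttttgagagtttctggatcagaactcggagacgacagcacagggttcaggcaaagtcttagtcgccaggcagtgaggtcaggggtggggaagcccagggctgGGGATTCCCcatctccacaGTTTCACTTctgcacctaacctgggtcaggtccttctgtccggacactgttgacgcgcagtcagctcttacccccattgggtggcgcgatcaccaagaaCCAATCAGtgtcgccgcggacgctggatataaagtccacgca
H2-D1: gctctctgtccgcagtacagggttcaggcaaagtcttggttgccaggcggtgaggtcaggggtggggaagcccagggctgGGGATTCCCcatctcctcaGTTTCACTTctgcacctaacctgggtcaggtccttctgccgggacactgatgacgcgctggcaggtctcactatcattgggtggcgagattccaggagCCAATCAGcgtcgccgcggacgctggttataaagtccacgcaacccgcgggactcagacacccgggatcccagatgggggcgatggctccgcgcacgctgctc
H2-Q7: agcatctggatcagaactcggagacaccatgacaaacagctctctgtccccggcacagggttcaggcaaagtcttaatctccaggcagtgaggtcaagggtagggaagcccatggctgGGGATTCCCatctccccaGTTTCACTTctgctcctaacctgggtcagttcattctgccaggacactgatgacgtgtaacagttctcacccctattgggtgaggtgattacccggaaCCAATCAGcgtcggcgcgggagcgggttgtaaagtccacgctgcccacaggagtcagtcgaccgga

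The Y box letters stood in 17 of the 31 MHC windows and in 4.1% of all 32851 windows, and the interferon response element in 7 of 31 and 0.399%. Enhancer A, a binding site of NF-kappa B type factors in class I promoters, was found in 4 of 31 (H2-K1, H2-D1, H2-Q6 and H2-Q7) and in 0.353% of all windows. The X box, where the RFX factors bind class II promoters, was found with these letters in H2-Eb1 and H2-Eb2 and in 0.566% of all windows. In H2-K1, H2-D1 and H2-Q7 the Y box letters stood on the other strand, and in H2-K1 they lay after the transcription start. Whether they are the Y box of these class I genes was not tested. A match is a description of these letters, not a shown binding site.

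**Figure D1:**
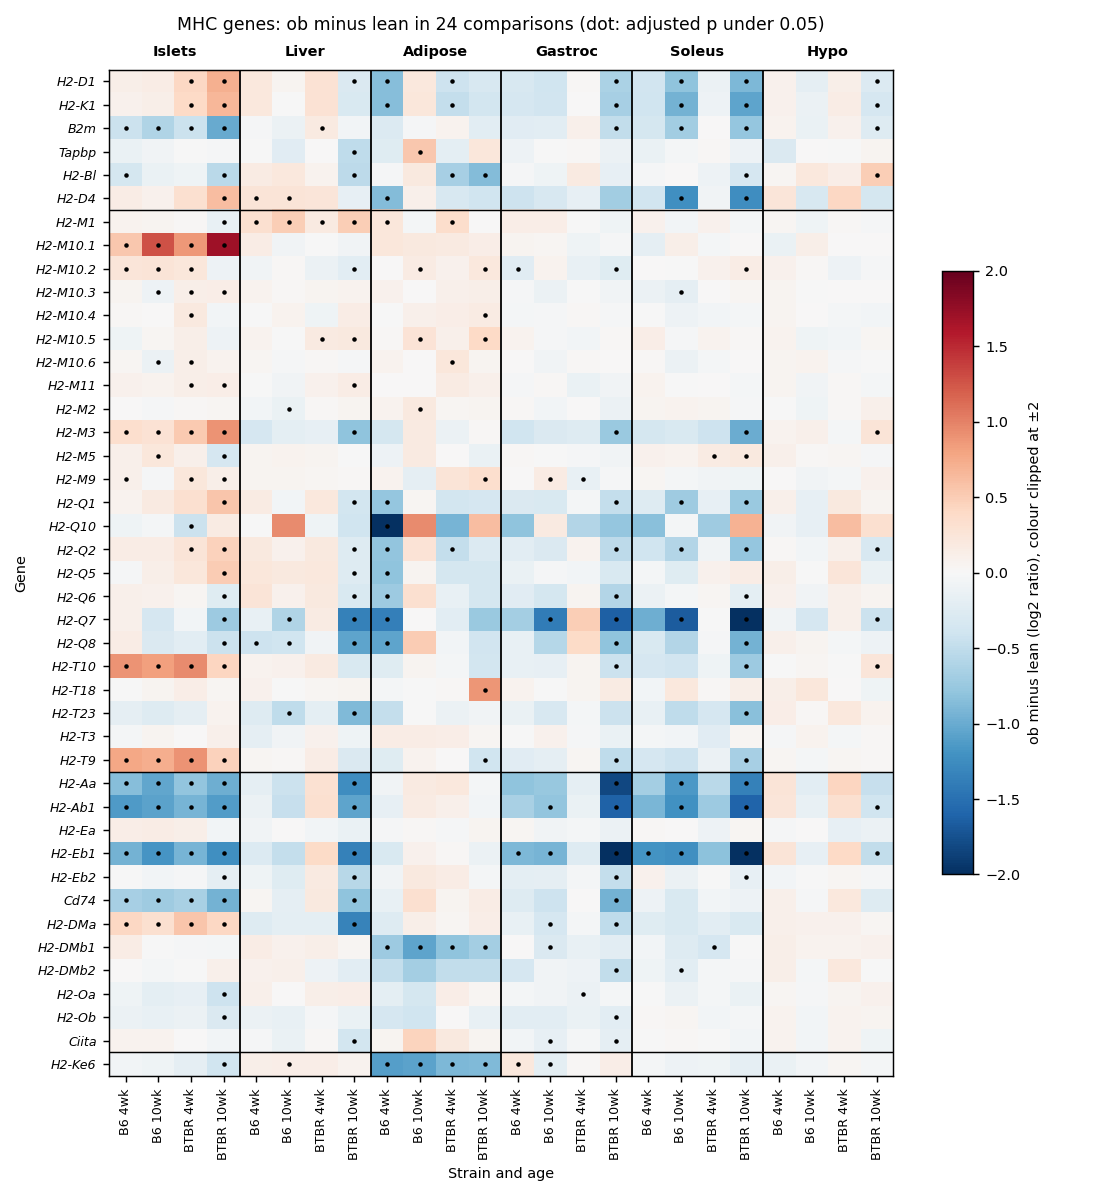
Log2 difference ob minus lean of each MHC gene (1 line each, ordered by role) in each tissue, strain and age (columns). Red is higher and blue lower in ob mice, colour stops at -2 and 2, and a dot marks an adjusted p under 0.05. The class II chains H2-Aa, H2-Ab1 and H2-Eb1 are blue in all 4 islet columns. Falls past the threshold are most numerous in 10-week BTBR gastrocnemius, with 21.

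In islets, obesity went with lower class II chains H2-Aa, H2-Ab1 and H2-Eb1 in both strains at both ages. Invariant chain and beta-2 microglobulin were lower too, while class Ib genes such as H2-M10.1, H2-T10 and H2-M3 were higher. The classical heavy chains H2-K1 and H2-D1 were higher in BTBR. Under limma with Benjamini-Hochberg adjustment over all 19896 genes, 7 MHC genes rose and 6 fell in B6 at 4 weeks, where 45.1% of all genes were called, and 7 rose and 7 fell at 10 weeks, where 44.1% were. In BTBR 14 rose and 6 fell at 4 weeks (43% of all genes called) and 14 rose and 15 fell at 10 weeks (51.6%). Without mouse 26 the last count was 14 and 13 (48.9%). The share of MHC genes called was therefore below that of all genes in B6 and near or above it in BTBR, and the medians over the 43 genes lay between -0.02 and 0.06.

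The class II alpha chain H2-Aa stood at 0.52, 0.54, 0.70, 0.85 and 0.95 in the 5 lean B6 mice of 10 weeks. The 5 ob mice gave -0.45, -0.41, -0.27, -0.26 and -0.26. All ob mice lay below all lean mice, with a difference of -1.04 (SE 0.15, adjusted p 4.42e-07), a 2.06-fold lower value. H2-Ab1, its partner beta chain, was already apart at 4 weeks, when lean B6 mice gave -0.10, -0.03, 0.17, 0.21 and 0.55. Ob B6 mice of that age gave -1.17, -1.03, -1.03, -0.87 and -0.78, a difference of -1.14 (SE 0.17, adjusted p 2.14e-06). In BTBR at 4 weeks H2-Ab1 was -0.21, -0.14, -0.09, 0.14 and 0.27 in lean and -1.37, -0.97, -0.97, -0.81 and -0.58 in ob mice (-0.94, SE 0.17, adjusted p 3.94e-05), again with no overlap.

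H2-Eb1, the beta chain of the other class II molecule, gave 0.36, 0.51, 0.63, 0.91 and 1.39 in lean BTBR mice of 10 weeks, the highest being mouse 26. Ob mice gave -0.89, -0.50, -0.50, -0.26 and -0.22. The groups did not overlap, and the difference of -1.23 (SE 0.16, adjusted p 6.95e-08) was -1.07 (adjusted p 4.67e-07) without mouse 26. Over the 4 comparisons H2-Eb1 fell by between 0.92 and 1.23 on the log2 scale, H2-Ab1 by between 0.94 and 1.14 and H2-Aa by between 0.79 and 1.04. These 3 chains fell at both ages, so the difference was present at the younger age studied. H2-Ea, the alpha chain that pairs with H2-Eb1, is listed by the annotation as a transcribed pseudogene. It was called in none of the 24 comparisons, so the H2-Eb1 values do not show a change of an assembled molecule.

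Cd74, the invariant chain that fills the class II groove until peptide is loaded, followed the chains. Its values at 10 weeks were 0.25, 0.46, 0.54, 0.65 and 0.77 in lean B6 mice and -0.38, -0.28, -0.18, -0.05 and 0.04 in ob B6 mice, a difference of -0.70 (SE 0.15, adjusted p 0.000184). In BTBR they were 0.10, 0.31, 0.44, 0.75 and 1.41 in lean and -0.58, -0.35, -0.28, -0.27 and -0.21 in ob mice (-0.94, SE 0.15, adjusted p 1.74e-06), and -0.74 (adjusted p 3.52e-06) without mouse 26, which was the highest. At 4 weeks Cd74 fell by 0.66 in B6 and by 0.66 in BTBR.

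H2-DMa, the alpha chain of the peptide loading molecule that removes the invariant chain remnant, went the other way. In BTBR at 4 weeks it was -0.60, -0.49, -0.41, -0.36 and -0.22 in lean and -0.24, 0.09, 0.24, 0.27 and 0.34 in ob mice, overlapping by 1 ob value. The difference was 0.56 (SE 0.10, adjusted p 4.11e-05), and H2-DMa rose in the other islet comparisons too (0.41 and 0.32 in B6, 0.41 in BTBR at 10 weeks). Its partner H2-DMb1 was not called in any of them (from -0.04 to 0.15), nor was the transactivator Ciita (from -0.05 to 0.06). The class II fall in islets was thus a fall of H2-Aa, H2-Ab1, H2-Eb1 and Cd74, 4 of the 12 class II genes, with H2-DMa higher. Of the rest, H2-Oa (-0.42), H2-Ob (-0.29) and H2-Eb2 (-0.19) fell in BTBR at 10 weeks and passed the threshold in no other islet comparison, and H2-Ob was -0.12 (adjusted p 0.207) without mouse 26.

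**Figure D2:**
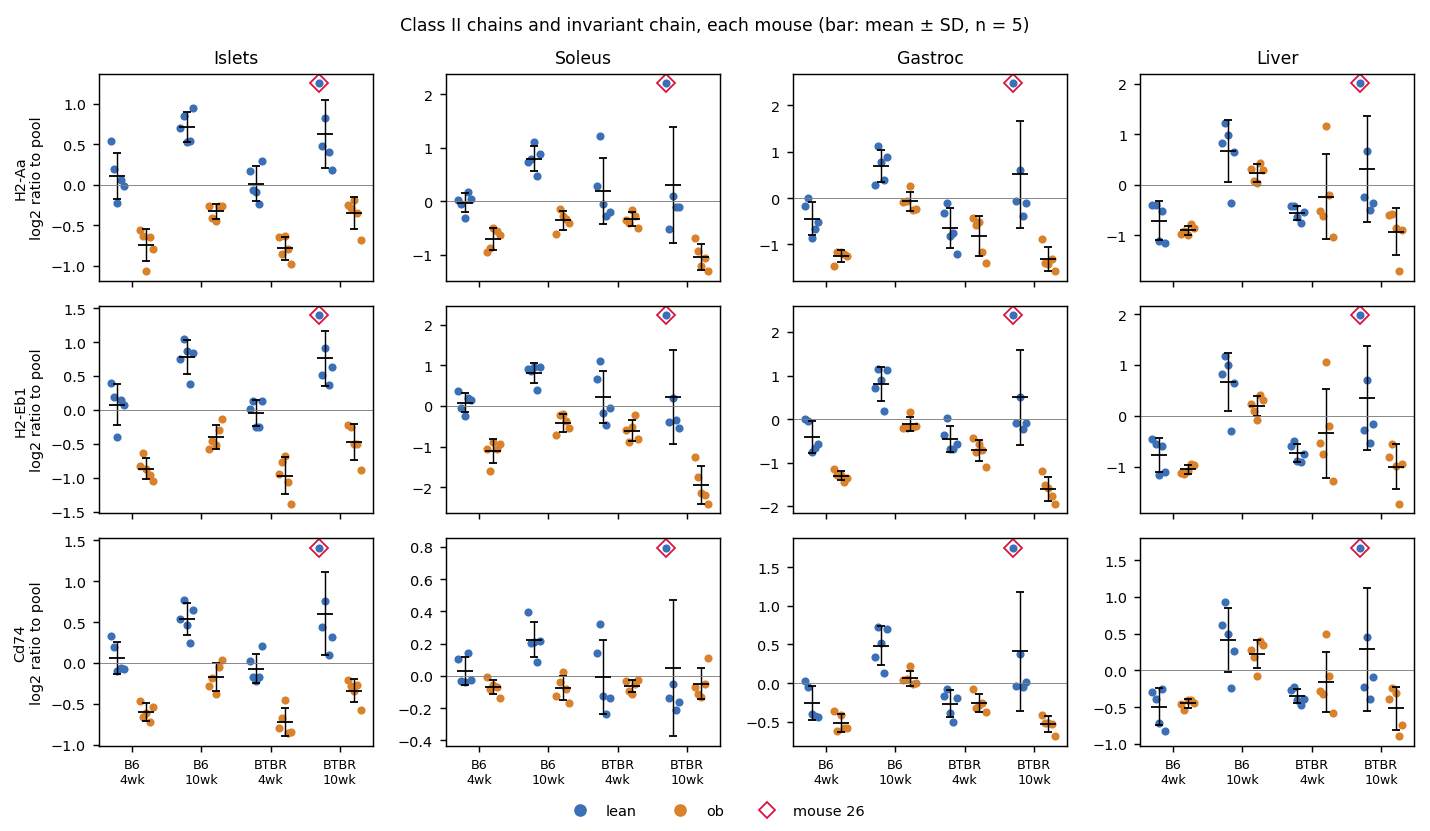
Log2 ratio to the pool of each mouse for class II genes and Cd74 by tissue, strain and age, lean in blue and ob in orange, with bars for mean ± SD (n = 5) and a red diamond around mouse 26. The islet groups separate at both ages, and mouse 26 is the top lean point at 10 weeks in BTBR muscle and liver.

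B2m, the light chain that every classical class I molecule needs to reach the surface, fell in all 4 islet comparisons. At 10 weeks lean B6 mice gave 0.21, 0.24, 0.35, 0.37 and 0.64 and ob B6 mice -0.30, -0.29, -0.23, -0.22 and -0.13 (-0.60, SE 0.09, adjusted p 2.05e-06). Lean BTBR mice gave 0.28, 0.33, 0.37, 0.47 and 0.98 and ob BTBR mice -0.70, -0.57, -0.51, -0.43 and -0.40. The BTBR difference was -1.01 (SE 0.09, adjusted p 2.44e-11), a 2.01-fold lower value, and -0.89 (adjusted p 7.66e-12) without mouse 26, which was again the highest. At 4 weeks B2m fell by 0.44 in B6 and by 0.42 in BTBR. The gene's 2 probes correlated at r = 0.442 over the arrays, so its mean hides some disagreement between them.

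The classical heavy chains did not follow their light chain. H2-K1 in B6 at 10 weeks was -0.12, -0.11, -0.09, -0.07 and -0.03 in lean and -0.21, -0.07, -0.01, 0.13 and 0.34 in ob mice, overlapping, with a difference of 0.12 (SE 0.14, adjusted p 0.531). In BTBR at the same age it was -0.59, -0.59, -0.37, -0.04 and 0.02 in lean and 0.24, 0.30, 0.36, 0.42 and 0.47 in ob mice. The BTBR groups did not overlap, and H2-K1 rose by 0.67 (SE 0.14, adjusted p 0.000151), or 0.75 (adjusted p 5.79e-05) without mouse 26. H2-D1, the other classical heavy chain, gave -0.63, -0.57, -0.38, -0.02 and 0.01 in lean and 0.27, 0.29, 0.38, 0.46 and 0.55 in ob BTBR mice (0.71, SE 0.15, adjusted p 0.00015). In BTBR at 4 weeks H2-K1 rose by 0.40 and H2-D1 by 0.42. The H2-K1 and H2-D1 probes differed by a median of only 0.03 over the 240 arrays and by at most 0.19, and class I genes are alike in sequence, so the 2 probes cannot be taken as 2 separate measurements. B2m and H2-K1 differed by a median of 0.15 and by up to 1.05. Other pairs of class I genes, apart from H2-T9 and H2-T10, were not compared in this way. Their rises and falls may not be separate measurements either.

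Among class Ib genes the largest islet difference was that of H2-M10.1, of a family known from pheromone-sensing neurons of the vomeronasal organ. Lean B6 mice of 10 weeks gave -0.76, -0.71, -0.70, -0.61 and -0.28 and ob mice 0.49, 0.56, 0.61, 0.71 and 0.95, a rise of 1.28 (SE 0.11, adjusted p 1.06e-11). In BTBR at 10 weeks lean mice gave -1.09, -0.81, -0.69, -0.64 and -0.64 and ob mice 0.84, 0.88, 0.90, 0.96 and 1.02. The rise there was 1.69 (SE 0.11, adjusted p 3.51e-15), a 3.23-fold higher value, and 1.73 (adjusted p 2.48e-14) without mouse 26, the highest of the lean mice. At 4 weeks H2-M10.1 rose by 0.53 in B6 and 0.87 in BTBR, and it was called in no other tissue. The other M10 genes moved by at most 0.26 in islets.

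H2-T10, a T region gene that the annotation lists as a transcribed pseudogene, and H2-T9 rose in all 4 islet comparisons. H2-T10 in BTBR at 4 weeks was -0.81, -0.76, -0.75, -0.70 and -0.65 in lean and -0.21, 0.16, 0.29, 0.32 and 0.48 in ob mice, with no overlap (0.94, SE 0.10, adjusted p 7.29e-10). Over the 4 comparisons H2-T10 rose by 0.43 to 0.94 and H2-T9 by 0.46 to 0.90, but their probes differed by a median of 0.04 over the 240 arrays and also count as nearly the same measurement. H2-M3, which presents formylated peptides of bacterial and mitochondrial origin, rose in all 4 as well. At 10 weeks in BTBR it was -0.58, -0.41, -0.40, -0.36 and -0.28 in lean and 0.39, 0.39, 0.43, 0.57 and 0.66 in ob mice (0.89, SE 0.09, adjusted p 3.99e-10). In the Q region of 10-week BTBR mice H2-Q1 (0.55), H2-Q5 (0.51) and H2-Q2 (0.46) rose, while H2-Q7 (-0.73), H2-Q8 (-0.43) and H2-Q6 (-0.23) fell, and H2-Q8 was -0.20 (adjusted p 0.128) without mouse 26.

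**Figure D3:**
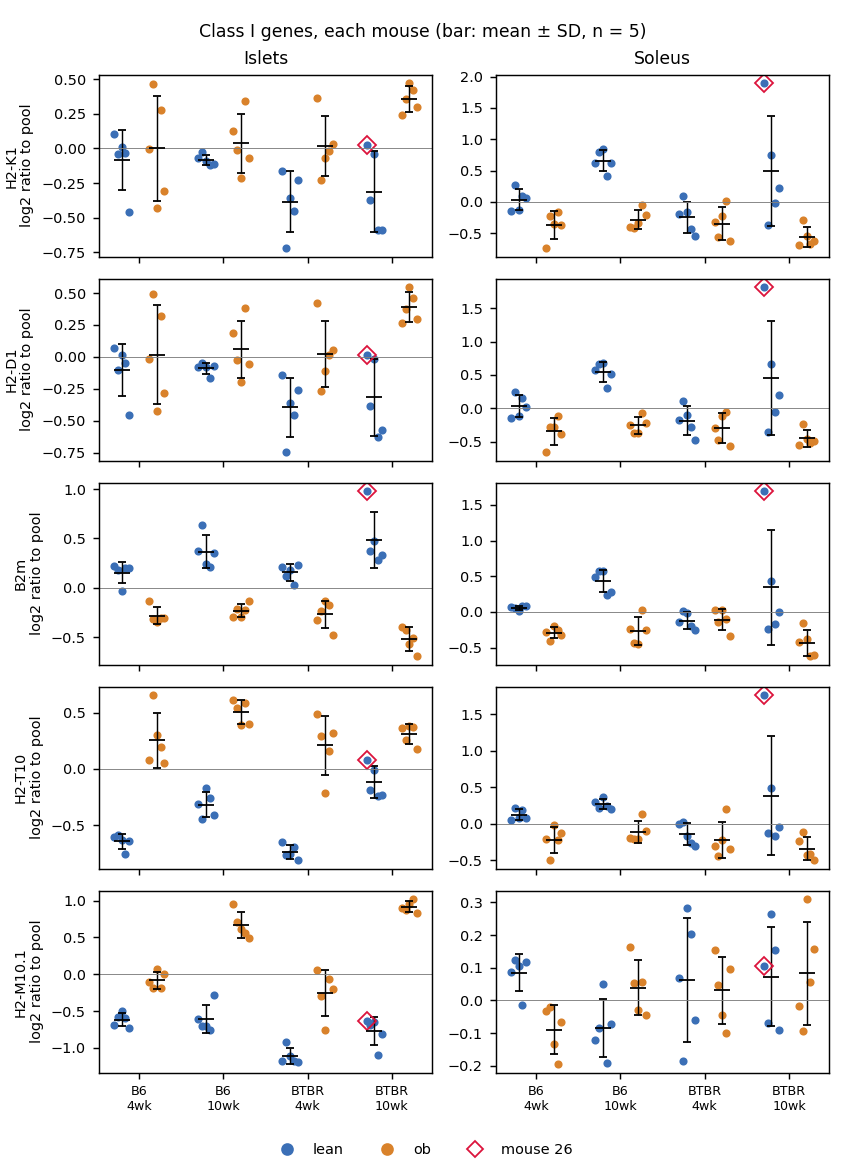
Log2 ratio to the pool of each mouse for 5 class I genes in islets and soleus, lean in blue, ob in orange, bars for mean ± SD (n = 5), mouse 26 in a red diamond. In islets B2m falls and H2-T10 and H2-M10.1 rise in ob mice, while in soleus the ob means of H2-K1, H2-D1 and B2m are the lower ones at 10 weeks.

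Some pathway genes outside the set also differed in islets. Of all genes 45.1% and 44.1% were called in B6 at 4 and 10 weeks, and 43% and 51.6% in BTBR. Of 11 measured interferon gamma response genes 6 fell in B6 at 4 weeks, 3 in B6 at 10 weeks, 3 in BTBR at 4 weeks and 7 in BTBR at 10 weeks (6 without mouse 26), and none rose. The counts of 3 of 11 were below the share of all genes called. Psmb9, an immunoproteasome subunit that cuts class I peptides, was lower at 10 weeks in B6 (-1.22, SE 0.13, adjusted p 3.28e-09) and BTBR (-1.24, SE 0.13, adjusted p 1.24e-09). Of 6 leukocyte genes 2 fell and 1 rose in B6 at 10 weeks and 5 fell in BTBR at 4 weeks. Their mean level at 4 weeks ranged from -0.10 to 0.97 in lean and -0.62 to -0.16 in ob BTBR mice. Of 12 macrophage markers 4 rose and 4 fell in B6 at 10 weeks, and of 9 B cell markers 1 rose and 1 fell. Of 10 acinar cell markers, which report exocrine tissue left on the islets, 9, 9, 6 and 9 fell in B6 at 4 and 10 weeks and BTBR at 4 and 10 weeks, the last being 8 without mouse 26. Their mean level at 10 weeks ranged from -0.36 to 1.41 in lean and -1.96 to -1.17 in ob B6 mice. Of 8 endothelial markers 3 fell and 1 rose in the first 3 comparisons each, and 5 fell and 1 rose in BTBR at 10 weeks. The part of exocrine tissue, vessels or immune cells in the MHC differences was not tested.

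In soleus, a slow-twitch muscle, MHC genes of both classes were lower in ob mice at 10 weeks. In B6 none rose and 12 fell at 10 weeks, when 15.3% of all genes were called and 7.07% fell. In BTBR 2 rose and 18 fell (28.2% of all genes called, 14.7% lower), or 1 and 16 without mouse 26 (25.8%, 13.7% lower). A fit of only the groups compared called 6 in BTBR in place of 20, and 18 in B6 in place of 12. The median over the 43 genes was -0.12 in B6 and -0.11 in BTBR. At 4 weeks 1 fell in B6 (5.42% of all genes called), and 1 rose and 1 fell in BTBR (7.42%).

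H2-Eb1 was the gene called at 4 weeks in B6. Lean mice gave -0.24, -0.04, 0.14, 0.19 and 0.38 and ob mice -1.61, -1.06, -1.06, -0.93 and -0.89, without overlap (-1.19, SE 0.33, adjusted p 0.0232). At 10 weeks lean B6 mice gave 0.39, 0.86, 0.92, 0.95 and 0.95 and ob B6 mice -0.71, -0.56, -0.37, -0.23 and -0.20 (-1.23, SE 0.33, adjusted p 0.00864). Lean BTBR mice of 10 weeks gave -0.55, -0.41, -0.34, 0.19 and 2.23 and ob mice -2.41, -2.20, -2.14, -1.74 and -1.25. The highest lean value was that of mouse 26, but the other 4 lean mice also lay above all ob mice, and the fall of -2.17 (SE 0.33, adjusted p 3.02e-06) was -1.67 (adjusted p 1.48e-06) without it. H2-Ab1 fell by 1.21 in B6 and 1.61 in BTBR and H2-Aa by 1.15 and 1.35 at 10 weeks, and without mouse 26 the BTBR differences were -1.16 and -0.87. Cd74 did not follow here. Its B6 difference of -0.30 missed the threshold (adjusted p 0.0668), as did the BTBR difference of -0.10 (adjusted p 0.582). Mouse 26 was high for Cd74 too, at 0.79 against -0.21 to -0.05 in the other lean BTBR mice. The BTBR difference minus that of B6 was 0.20 with mouse 26 and 0.39 without it. Cd74 was thus not called in soleus of either strain at 10 weeks with all mice, and leaving out mouse 26 moved the BTBR difference upward.

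The class I genes fell with the class II chains in soleus. H2-K1 in B6 at 10 weeks was 0.41, 0.62, 0.62, 0.80 and 0.84 in lean and -0.42, -0.40, -0.34, -0.21 and -0.06 in ob mice (-0.94, SE 0.22, adjusted p 0.00366). B2m was 0.24, 0.28, 0.49, 0.57 and 0.57 in lean and -0.45, -0.43, -0.26, -0.24 and 0.03 in ob mice (-0.70, SE 0.19, adjusted p 0.0108). Neither gene's groups overlapped. In BTBR H2-K1 fell by 1.06, or -0.71 (adjusted p 0.000758) without mouse 26, and B2m by 0.78, or -0.44 (adjusted p 0.00218).

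H2-Q7, which encodes the class Ib molecule Qa-2, showed the largest soleus difference in B6, and in BTBR it was level with H2-Eb1. Lean B6 mice of 10 weeks gave 0.79, 1.03, 1.04, 1.14 and 1.45 and ob mice -0.97, -0.73, -0.73, -0.30 and -0.18, without overlap (-1.67, SE 0.46, adjusted p 0.0113). In BTBR lean mice gave -0.83, -0.65, 0.08, 1.85 and 2.79 and ob mice -2.37, -2.04, -1.62, -1.58 and -0.10. These groups overlapped, since 2 lean mice lay below the highest ob mouse, and the difference was -2.19 (SE 0.46, adjusted p 0.000352), or -1.66 (adjusted p 0.00234) without mouse 26. H2-D4, a pseudogene of the D region, fell by 1.23 in B6 and 1.25 in BTBR, H2-Q1 by 0.71 and 0.75, and H2-Q2 by 0.58 and 0.77. Without mouse 26 these 3 BTBR differences were -0.89, -0.49 and -0.51. In BTBR alone H2-M3 (-0.99), H2-Q8 (-0.94), H2-T23 (-0.84), H2-T10 (-0.73) and H2-T9 (-0.67) were also past the threshold, a contrast between strains that the test of the difference did not bear out for any soleus gene. Without mouse 26 they were -0.66, -0.51, -0.51, -0.38 and -0.32, all past the threshold.

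The 11 interferon gamma response genes had a median of -0.55 in soleus of B6 at 10 weeks, and 8 of them fell in BTBR (median -0.69), or 6 without mouse 26. Of all genes 7.07% fell in B6 soleus and 14.7% in BTBR soleus, or 13.7% without mouse 26. Of 19 type I interferon response genes 4 fell in B6 and 11 in BTBR, or 10 without mouse 26. The mean of 12 macrophage markers ranged from -0.14 to 0.06 in lean and -0.45 to 0.05 in ob B6 mice, and in BTBR 1 of them rose and 1 fell, or 1 and 0 without mouse 26. Leukocyte genes fell for 2 of 6 in each strain, and for 0 of 6 in BTBR without mouse 26. In addition 3 of 5 red blood cell genes rose in BTBR, and their part in the MHC result was not tested.

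Gastrocnemius, a mostly fast-twitch muscle, gave the same direction in BTBR at 10 weeks, when 0 rose and 21 fell, while 25.2% of all genes were called and 13.3% fell. Without mouse 26 it was 0 and 17 (22.8%, 12.2% lower). A fit of only the groups compared called 10 in BTBR in place of 21, and 19 in B6 in place of 8. The median over the 43 genes was -0.31 there against -0.02 over all genes, and -0.20 without mouse 26. In B6 at 10 weeks 1 rose and 7 fell (16.2%), and the total of 8 became 3 without lean mouse 22 or without lean mouse 48. At 4 weeks 1 rose and 2 fell in B6 (14.4%), and 0 rose and 2 fell in BTBR (5.87%), with 5 of 43 BTBR genes past an unadjusted p of 0.05.

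H2-Eb1 in lean B6 mice of 10 weeks gave 0.19, 0.71, 0.89, 1.13 and 1.14. Ob B6 mice gave -0.21, -0.21, -0.18, -0.16 and 0.16, just below the lowest lean value (-0.93, SE 0.28, adjusted p 0.0196). In BTBR lean mice gave -0.22, -0.09, -0.08, 0.51 and 2.38 and ob mice -1.94, -1.76, -1.59, -1.51 and -1.20. Mouse 26 was the highest by far, and the other 4 lean mice still lay above all ob mice: the fall was -2.10 (SE 0.28, adjusted p 5.51e-07), a 4.28-fold lower value, and -1.63 (adjusted p 3.04e-08) without it. H2-Aa in BTBR was -0.38, -0.10, -0.07, 0.62 and 2.49 in lean and -1.56, -1.42, -1.39, -1.32 and -0.87 in ob mice (-1.83, SE 0.31, adjusted p 2.46e-05; -1.33, adjusted p 1.8e-05, without mouse 26). The groups again did not overlap.

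Of the 12 class II genes 9 fell in BTBR gastrocnemius at 10 weeks, or 7 without mouse 26, and 5 of 12 in B6. In BTBR these included H2-Ab1 (-1.61, or -1.22 without mouse 26), Cd74 (-0.94, SE 0.19, adjusted p 0.000242; -0.61, adjusted p 7.74e-05, without mouse 26), H2-DMa (-0.51, or -0.30) and H2-DMb2 (-0.49, or -0.38). The calls lost without mouse 26 were Ciita, at -0.18 with it and -0.10 (adjusted p 0.0648) without, and H2-Ob, at -0.21 and -0.15 (adjusted p 0.192). Ciita also fell in B6 (-0.16, SE 0.05, adjusted p 0.0271). Cd74 and H2-DMa thus moved with the chains in gastrocnemius of BTBR, which they did not do in its soleus, where H2-DMa was -0.31 (adjusted p 0.0705), although the direct comparison of these 2 muscles was not tested.

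H2-Q7 was the class I gene with the largest gastrocnemius difference in both strains. Lean B6 mice of 10 weeks gave 0.49, 0.98, 1.08, 1.20 and 1.21 and ob mice -0.83, -0.55, -0.43, -0.15 and -0.11, without overlap (-1.41, SE 0.36, adjusted p 0.00521). It fell by 1.63 in BTBR, or -1.15 (adjusted p 0.00413) without mouse 26. H2-K1 (-0.66), H2-D1 (-0.63) and B2m (-0.49) fell in BTBR and were -0.33, -0.30 and -0.23 without mouse 26, all still past the threshold. H2-K1 in B6 gave -0.38 (SE 0.19, adjusted p 0.204). Around these genes 7 of 11 interferon gamma response genes, 11 of 19 type I interferon response genes and 7 of 10 genes of class I peptide supply fell in BTBR, or 6, 9 and 5 without mouse 26. Of all genes 13.3% fell there, or 12.2% without mouse 26. Of 12 macrophage markers 6 fell and 2 rose, or 5 and 2 without mouse 26, and their part in the result was not tested.

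In liver, class II genes and class Ib genes such as H2-Q7 and H2-T23 were lower in ob BTBR mice of 10 weeks. There 3 MHC genes rose and 19 fell, where 49.8% of all genes were called, so that the share called (51.2%) was near that of all genes, of which 28% rose and 21.7% fell. Without mouse 26 the counts were 5 and 13, with 47.3% of all genes called, 26.9% higher and 20.4% lower. The median over the 43 genes was -0.26 against 0.03 over all genes, and -0.13 without mouse 26. In B6 3 rose and 4 fell at 10 weeks (41.4% of all genes) and 2 rose and 1 fell at 4 weeks (28.9%), and in BTBR at 4 weeks 3 rose and none fell (23.3%; 10 of 43 past an unadjusted p of 0.05).

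H2-DMa gave the clearest liver difference. In BTBR at 10 weeks lean mice gave 0.25, 0.41, 0.49, 0.62 and 1.38 and ob mice -0.82, -0.79, -0.76, -0.70 and -0.48. The groups lay well apart even with mouse 26, the highest, left out, and H2-DMa fell by 1.34 (adjusted p 2.29e-09), or -1.15 (adjusted p 2.02e-09) without it. In B6 at the same age the lean values of 0.05, 0.19, 0.33, 0.53 and 0.67 overlapped the ob values of 0.06, 0.06, 0.17, 0.22 and 0.28 (-0.20, SE 0.14, adjusted p 0.296).

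H2-Eb1 in BTBR liver at 10 weeks was -0.53, -0.27, -0.15, 0.70 and 1.97 in lean and -1.72, -0.99, -0.94, -0.80 and -0.55 in ob mice. The lowest lean mouse and the highest ob mouse were nearly level, and the fall of -1.35 (SE 0.34, adjusted p 0.00135) was -0.94 (adjusted p 0.0106) without mouse 26. H2-Aa fell by 1.24 (without it -0.82), H2-Ab1 by 1.06 (-0.70) and Cd74 by 0.80 (-0.45), all past the threshold either way. Ciita, which switches class II transcription on, was 0.07, 0.07, 0.12, 0.13 and 0.82 in lean and -0.17, -0.14, -0.14, -0.12 and -0.08 in ob mice. The lean group lay above the ob group with and without mouse 26 (-0.37, SE 0.08, adjusted p 0.000353; -0.23, adjusted p 0.00028).

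Among class I genes in BTBR liver at 10 weeks H2-Q7 was -0.16, -0.14, 0.09, 0.46 and 1.498 in lean and -1.38, -1.23, -1.01, -1.004 and -0.40 in ob mice (-1.35, SE 0.22, adjusted p 4.04e-06; -1.07, adjusted p 1.19e-05, without mouse 26). Its groups did not overlap. Tapbp, the tapasin that bridges class I to the peptide transporter, gave -0.19, -0.10, -0.08, 0.01 and 0.85 in lean, where 0.85 was mouse 26, and -0.62, -0.57, -0.38, -0.34 and -0.12 in ob mice. With 1 ob mouse above the lowest lean mouse its fall was -0.51 (SE 0.11, adjusted p 0.000335), or -0.32 (adjusted p 0.000508) without mouse 26. B2m (-0.06, SE 0.06, adjusted p 0.411) and H2-K1 (-0.31, SE 0.13, adjusted p 0.0546) were not called, and H2-D1 (-0.28, SE 0.12, adjusted p 0.0486) was -0.13 (adjusted p 0.314) without mouse 26. H2-Q8 fell by 1.06, and by 0.41 and 0.40 in B6 at 4 and 10 weeks.

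H2-T23, which encodes Qa-1, the ligand of the inhibitory NK receptor NKG2A, fell in both strains at 10 weeks. In B6 lean mice gave 0.03, 0.09, 0.13, 0.35 and 0.36 and ob mice -0.38, -0.34, -0.31, -0.29 and -0.25, without overlap (-0.50, SE 0.15, adjusted p 0.00579). In BTBR it fell by 0.88, or -0.63 (adjusted p 8.82e-07) without mouse 26. H2-M1 was the gene that rose in liver in all 4 comparisons (0.32 in B6 at 4 weeks, 0.49 in B6 at 10 weeks, 0.18 in BTBR at 4 weeks and 0.49 in BTBR at 10 weeks). Lean BTBR mice of 10 weeks gave -0.38, -0.33, -0.21, -0.14 and -0.09 and ob mice 0.21, 0.23, 0.24, 0.31 and 0.32, with no overlap (0.49, SE 0.05, adjusted p 2.42e-09).

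In BTBR liver at 10 weeks 16 of 19 type I interferon response genes fell and none rose, and 14 fell without mouse 26. Of all genes 21.7% fell there, or 20.4% without mouse 26. Of 11 interferon gamma response genes 5 fell, 2 without mouse 26, and 8 of 10 genes of class I peptide supply fell, 5 without it. Of 12 macrophage markers, which cover the Kupffer cells of the liver, 11 fell and 1 rose, or 7 and 1 without mouse 26. Their mean ranged from -0.36 to 0.72 in lean and from -0.77 to -0.34 in ob mice. Of the 8 T cell markers 5 fell, of the 7 NK cell markers 5 and of the 6 leukocyte genes 4. Without mouse 26, which was high in all 3 lists (NK cell markers 0.68 against -0.13 to 0.16 in the other lean mice), the counts were 2, 3 and 4, and 1 NK cell marker rose. The part of these cells in the MHC result was not tested.

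In adipose tissue, class I genes were lower in ob B6 mice at 4 weeks, and class II chains were called in no comparison. At 4 weeks in B6 1 MHC gene rose and 12 fell (33.2% of all genes called, 15.2% lower). At 10 weeks 5 rose and 2 fell (41.7%). In BTBR 2 rose and 6 fell at 4 weeks (31.9%) and 5 rose and 4 fell at 10 weeks (44%), which became 9 and 2 without mouse 26 (47.8%), while a fit of only the groups compared called 5 in place of 9. The median over the 43 genes was -0.24 in B6 at 4 weeks against 0.02 over all genes, and 0.11, 0.01 and -0.04 in the other comparisons, the last being 0.10 without mouse 26.

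H2-K1 in B6 at 4 weeks was -0.02, 0.02, 0.03, 0.05 and 0.15 in lean and -1.05, -0.80, -0.79, -0.75 and -0.65 in ob mice. The gap between the groups was wider than the range of either (-0.86, SE 0.17, adjusted p 9.68e-05, 1.81-fold lower). H2-D1 gave 0.00, 0.02, 0.05, 0.05 and 0.19 in lean and -0.97, -0.79, -0.73, -0.72 and -0.70 in ob mice (-0.85, SE 0.16, adjusted p 5.46e-05). H2-Q7 (-1.37), H2-Q8 (-1.05), H2-D4 (-0.86), H2-Q5 (-0.80), H2-Q2 (-0.79), H2-Q1 (-0.78) and H2-Q6 (-0.73) fell with them. On the adipose array of lean BTBR mouse 26, H2-K1, H2-D1, H2-D4, H2-Q1, H2-Q2 and H2-Q5 all lay between 1.051 and 1.165. In its soleus H2-Q5 (0.449) and H2-K1 (1.9) were apart. Whether the probes of these class I genes share signal was not tested, so these falls cannot be counted as separate measurements. B2m did not pass the threshold (-0.28, SE 0.15, adjusted p 0.161). In BTBR at 4 weeks H2-K1 fell by 0.48, H2-D1 by 0.41 and H2-Q2 by 0.48. In the B6 arrays of 4 weeks all 5 red blood cell genes rose (their mean ranged from -1.06 to 0.19 in lean and from 0.10 to 0.96 in ob mice) and 3 of 8 T cell markers fell, and their part in the class I result was not tested.

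H2-Q10, a secreted class I molecule made mainly by the liver, had the largest adipose difference. Lean B6 mice of 4 weeks gave 0.55, 1.03, 1.23, 1.54 and 1.97 and ob mice -1.36, -1.33, -1.05, -0.98 and -0.37, without overlap (-2.28, SE 0.61, adjusted p 0.00357). The mean of 10 hepatocyte genes (a list added after its values were seen) ranged from -3.15 to 0.26 in the same lean mice and from -0.79 to 0.98 in the ob mice, and its part in the H2-Q10 difference was not tested. In adipose tissue of mouse 26 both were low, H2-Q10 at -2.29 against -0.95 to 1.48 in the other 4 lean BTBR mice and the hepatocyte mean at -2.03 against -0.68 to 1.56. In B6 at 10 weeks H2-Q10 gave 0.94 (SE 0.61, adjusted p 0.229).

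At 10 weeks in B6 the class I fall was absent: H2-K1 gave 0.23 (SE 0.17, adjusted p 0.283). Tapbp rose, from -0.33, -0.26, -0.17, -0.13 and 0.01 in lean to 0.31, 0.33, 0.37, 0.38 and 0.41 in ob mice, with no overlap (0.53, SE 0.11, adjusted p 0.000207). H2-DMb1, the beta chain of the class II loading molecule, was the class II gene that fell in adipose tissue. At 10 weeks in B6 it was 0.13, 0.23, 0.44, 1.05 and 1.69 in lean and -0.73, -0.70, -0.62, -0.36 and 0.65 in ob mice. A single ob mouse at 0.65 overlapped the lean group (-1.06, SE 0.28, adjusted p 0.0022). At 4 weeks the fall of H2-DMb1 was -0.72 in B6 and -0.80 in BTBR. Older BTBR mice gave -0.68, and this was -0.64 (adjusted p 0.0752) without mouse 26.

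H2-Aa in BTBR at 10 weeks was 0.08, 0.08, 0.17, 0.30 and 1.31 in lean, the highest being mouse 26, and -0.04, 0.10, 0.38, 0.48 and 0.82 in ob mice. The groups overlapped throughout (-0.04, SE 0.25, adjusted p 0.911). Cd74 differed by 0.32 in B6 at 10 weeks (adjusted p 0.24) and by 0.16 in BTBR (adjusted p 0.586). In the same arrays 10 of 12 macrophage markers rose and 1 fell in B6 at 10 weeks, 10 rose in BTBR at 10 weeks, and 8 and 7 rose at 4 weeks. All 6 genes of the class II route and invariant chain processing, among them the cathepsin Ctss (2.28) and the thiol reductase Ifi30 (1.05), rose in B6 at 10 weeks, and 5, 4 and 5 rose in B6 at 4 weeks and BTBR at 4 and 10 weeks. The class II chains were thus not called in samples in which macrophage markers and the genes that process the invariant chain were higher, and this held without mouse 26. The macrophage mean ran from -0.85 to 0.10 in lean and from 0.55 to 0.80 in ob BTBR mice of 10 weeks. Without mouse 26 H2-DMa, at 0.38 (adjusted p 0.0467), Ciita, at 0.33 (adjusted p 0.0453), and Tapbp, at 0.36 (adjusted p 0.00219), were past the threshold as higher in ob BTBR mice.

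**Figure D4:**
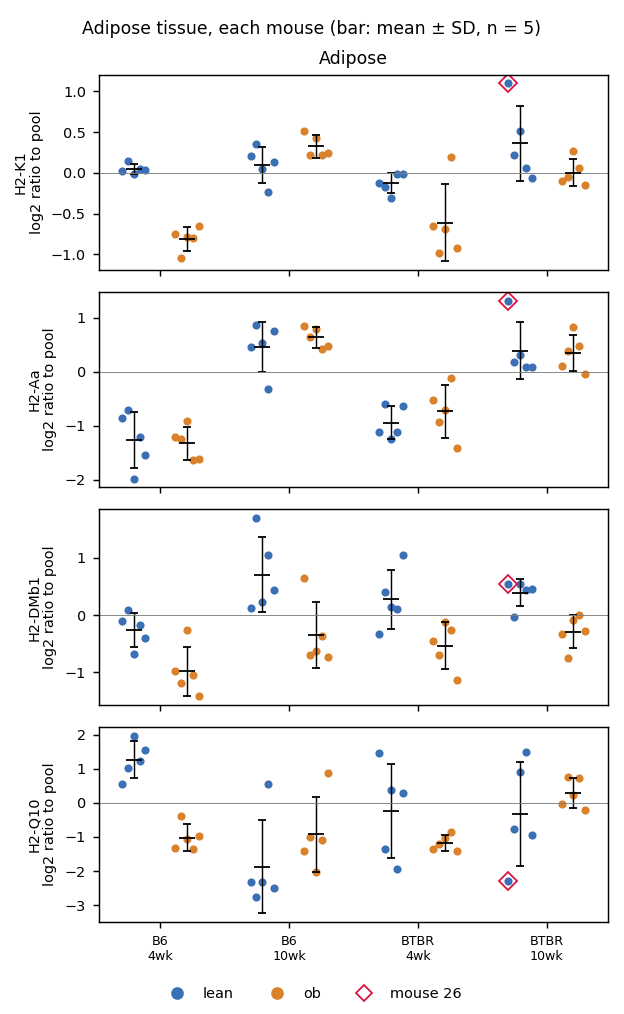
Log2 ratio to the pool of each mouse in adipose tissue, lean in blue and ob in orange, with bars for mean ± SD (n = 5) and mouse 26 in a red diamond. The class I groups separate in B6 at 4 weeks and not at 10 weeks, while the class II chain H2-Aa overlaps in every comparison.

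H2-Ke6, which carries an H2 symbol by position but encodes a 17-beta-hydroxysteroid dehydrogenase and not an MHC molecule, fell in adipose tissue in all 4 comparisons (-1.11 in B6 at 4 weeks, -1.08 in B6 at 10 weeks, -0.90 in BTBR at 4 weeks and -0.89 in BTBR at 10 weeks). In B6 at 10 weeks it was 0.34, 0.34, 0.45, 0.56 and 0.56 in lean and -0.74, -0.70, -0.58, -0.56 and -0.55 in ob mice, without overlap (-1.08, SE 0.08, adjusted p 4.06e-13). H2-Bl, listed as a transcribed class I pseudogene, fell in BTBR at both ages and not in B6. In BTBR at 10 weeks it was 0.49, 0.69, 0.83, 0.86 and 0.99 in lean and -0.45, -0.16, -0.03, 0.01 and 0.12 in ob mice (-0.87, SE 0.12, adjusted p 2.18e-07). H2-T18 was past the threshold in BTBR at 10 weeks (0.89, SE 0.34, adjusted p 0.034), with -3.16, -0.22, -0.06, -0.04 and 0.17 in lean and -0.03, 0.27, 0.28, 0.30 and 0.33 in ob mice. Its lean mean rests on 1 low array, that of mouse 33, and the other 4 lean mice overlapped the ob group. H2-M10.5 rose in both strains at 10 weeks (0.28 and 0.40).

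Hypothalamus showed the fewest differences. In B6 at 4 and 10 weeks and in BTBR at 4 weeks limma called 0 of the 43 genes, where it called 4.39%, 0.759% and 0.352% of all genes, and 5, 5 and 12 of the 43 were past an unadjusted p of 0.05. In BTBR at 10 weeks 3 rose and 7 fell (12.6% of all genes), or 3 and 3 without mouse 26 (10.7%), and a fit of only the groups compared called 3 in place of 10.

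B2m in BTBR at 10 weeks gave 0.00, 0.01, 0.17, 0.22 and 0.39 in lean, the highest being mouse 26, and -0.22, -0.16, -0.11, -0.02 and 0.00 in ob mice. The groups touched at 0.00, and B2m fell by 0.26 (adjusted p 0.00154), or -0.20 (adjusted p 0.00931) without mouse 26. H2-Eb1 gave -0.16, -0.04, 0.10, 0.20 and 0.50 in lean and -0.67, -0.50, -0.48, -0.42 and 0.23 in ob mice. Mouse 32 and not mouse 26 was the highest here, 1 ob mouse at 0.23 lay within the lean range, and the fall of -0.49 (SE 0.17, adjusted p 0.0479) was -0.47 (adjusted p 0.0881) without mouse 26. H2-Ab1 (-0.40, SE 0.13, adjusted p 0.0354) was -0.38 (adjusted p 0.0705) and H2-K1 (-0.33, SE 0.09, adjusted p 0.00913) -0.24 (adjusted p 0.0508) without it.

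H2-Bl rose in the BTBR hypothalamus at 10 weeks, from -0.14, -0.13, -0.09, -0.07 and -0.05 in lean to 0.27, 0.34, 0.40, 0.44 and 0.52 in ob mice. The groups lay apart and mouse 26 was not the extreme (0.49, SE 0.07, adjusted p 3.61e-06; 0.49, adjusted p 1.51e-05, without it). This was the opposite of its fall in BTBR islets (-0.54), liver (-0.52), adipose tissue (-0.87) and soleus (-0.34). H2-M3 (0.25) and H2-T10 (0.24) rose too. Of 11 interferon gamma response genes 8 fell, or 4 without mouse 26, 6 of 12 macrophage markers fell and 1 rose, or 5 and 0 without mouse 26, and 4 of 5 red blood cell genes rose. Of all genes 12.6% were called there, or 10.7% without mouse 26. The part of blood and microglia in these values was not tested.

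**Figure D5:**
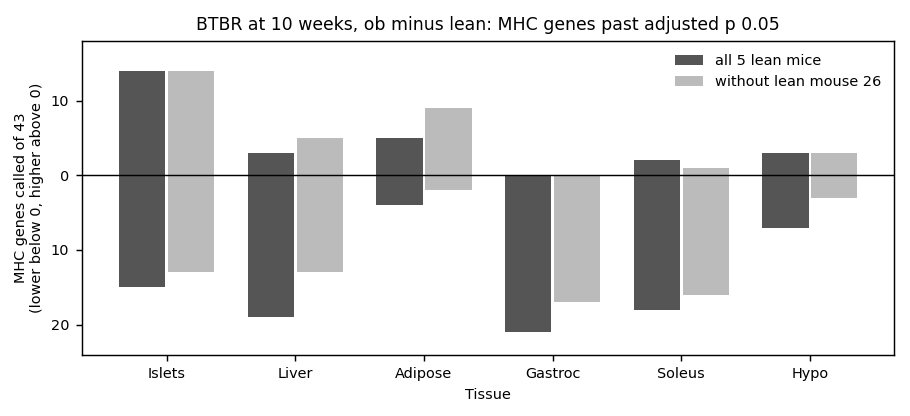
Number of the 43 MHC genes past adjusted p 0.05 in BTBR at 10 weeks by tissue, higher in ob above 0 and lower in ob below 0, with all 5 lean mice (dark) and without mouse 26 (light). The lower counts shrink in all 6 tissues without mouse 26, from 21 to 17 in gastrocnemius and from 7 to 3 in hypothalamus.

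Across the 24 comparisons H2-Eb1 fell in 12 and rose in none, H2-Ab1 fell in 10 and H2-Q7 in 9, while H2-Aa fell in 8 and B2m fell in 8 and rose in 1, the liver of BTBR at 4 weeks (0.17). H2-Ea, which the annotation lists as a pseudogene, and H2-T3 were called in none. The comparisons are not independent, since most mice gave several tissues and each lean group also enters the strain and age contrasts.

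Of the 7 factors that bind MHC promoters (Rfx5, Rfxap, Rfxank, Nfya, Nfyb, Nfyc and Creb1), Rfxank, the ankyrin subunit of the RFX complex that binds the X box, was lower in ob BTBR mice of 10 weeks in every tissue studied. Its difference was -0.81 (SE 0.07, adjusted p 5.81e-12) in islets, -0.82 (SE 0.11, adjusted p 1.15e-07) in liver and -0.64 (SE 0.07, adjusted p 7.15e-09) in adipose tissue. In gastrocnemius it was -0.62 (SE 0.06, adjusted p 1.79e-10), in soleus -0.45 (SE 0.07, adjusted p 4.77e-06) and in hypothalamus -0.41 (SE 0.06, adjusted p 7.62e-06). All ob mice lay below all lean mice in each of the 6 tissues, and without mouse 26 the differences ran from -0.81 to -0.44. The share of all genes whose groups lay apart in this way is not given here. In B6 at 10 weeks Rfxank fell in islets (-0.46), gastrocnemius (-0.38), soleus (-0.36) and adipose tissue (-0.23), and not in liver (-0.02, adjusted p 0.894) or hypothalamus (-0.01, adjusted p 0.99). In BTBR adipose tissue Rfxank fell while H2-Aa, H2-Ab1 and H2-Eb1 were not called. Of the 7 factors 4 fell and none rose in BTBR islets and soleus at 10 weeks, and 4 fell and 1 rose in liver (3 and 1 without mouse 26), where 51.6%, 28.2% and 49.8% of all genes were called. In gastrocnemius 2 fell and 1 rose (25.2% of all genes called), and in adipose tissue 1 fell and 2 rose (44%). The hypothalamus count and the values of the factors other than Rfxank are not given here.

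Whether obesity acted differently in the strains was tested as the BTBR difference minus the B6 difference. At 4 weeks limma called 1 of 258 gene and tissue pairs, H2-Bl in adipose tissue (-0.64, SE 0.17, adjusted p 0.043), where 1.25% of all genes were called, and this call was lost on leaving out any of 12 single mice. The other 5 tissues gave 0 calls, with 4 of 43 genes in islets, 2 in liver, 3 in gastrocnemius, 0 in soleus and 2 in hypothalamus past an unadjusted p of 0.05, and shares of all genes called of 9.78%, 1.39%, 0.161%, 0.136% and 0%. At 10 weeks 28 pairs were called (14.4% of all gene and tissue pairs), 14 of them in islets (6 higher in BTBR, 8 lower; 33.5% of all genes) and 9 in liver (3 and 6; 25.6%). Adipose tissue gave 1 and 2 (12.9%) and gastrocnemius 1 and 1 (6.61%). Soleus and hypothalamus gave 0 (7.26% and 0.553%), with 6 and 5 genes past an unadjusted p of 0.05. Without mouse 26 the total was 29, 14 higher and 15 lower (14.6%).

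In islets the larger rise of H2-M3 in BTBR was 0.61 (SE 0.13, adjusted p 0.000331), that of H2-D1 0.56 (SE 0.21, adjusted p 0.039), of H2-K1 0.55 (SE 0.20, adjusted p 0.031) and of H2-M10.1 0.41 (SE 0.15, adjusted p 0.0332). H2-M5 (-0.56, SE 0.09, adjusted p 5.78e-06), B2m (-0.41, SE 0.13, adjusted p 0.0124), H2-Bl (-0.40, SE 0.13, adjusted p 0.0144) and H2-T10 (-0.39, SE 0.13, adjusted p 0.0217) were lower in BTBR. Thus class I heavy chains rose more and their light chain fell more in BTBR, while H2-Aa, H2-Ab1, H2-Eb1 and Cd74 were not called as different. In liver the largest was H2-DMa (-1.14, SE 0.20, adjusted p 8.47e-05; -0.95, adjusted p 5.3e-05 without mouse 26), then H2-Bl (-0.73, SE 0.14, adjusted p 0.000129) and H2-Q8 (-0.66, SE 0.21, adjusted p 0.019). The islet and liver differences named here were past the threshold without mouse 26 as well. The larger muscle falls of BTBR were not called as different from those of B6. Without mouse 26 H2-Q5 (0.45, adjusted p 0.0192) and Cd74 (0.39, adjusted p 0.0151) were called in soleus, both higher in BTBR.

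The change of the obesity difference from 4 to 10 weeks was called for 48 gene and tissue pairs in BTBR, 5 higher and 43 lower at 10 weeks, and for 14 in B6, 12 higher and 2 lower. Of all gene and tissue pairs 12.1% were called in BTBR, and in B6 the shares of all genes by tissue ran from 0.618% to 11.1%. Without mouse 26 the BTBR counts were 5 and 33 (12.4%). Of the BTBR calls 1 higher and 19 lower were in liver (14.1% of all genes called, 6.7% lower), 2 and 10 in islets (25.2%), 1 and 6 in hypothalamus (2.2%), 0 and 6 in gastrocnemius (5.82%), 0 and 1 in soleus (4.81%) and 1 and 1 in adipose tissue (20.8%). In B6 10 higher were in adipose tissue (11.1%, 6.49% higher), 1 and 1 in islets (8.11%) and 1 and 1 in gastrocnemius (7.57%). Liver, soleus and hypothalamus of B6 gave 0 (6.82%, 1.7% and 0.618%), with 1, 3 and 8 genes past an unadjusted p of 0.05.

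In BTBR gastrocnemius H2-Eb1 moved from -0.26 at 4 weeks to -2.10 at 10 weeks, a change of -1.84 (SE 0.40, adjusted p 0.00326) and of -1.37, adjusted p 0.000628 without mouse 26. H2-Q7 (-2.12, SE 0.51, adjusted p 0.00849), H2-Aa (-1.65, SE 0.44, adjusted p 0.0192) and H2-Ab1 (-1.47, SE 0.34, adjusted p 0.0062) changed with it. In BTBR liver H2-Eb1 (-1.73, SE 0.48, adjusted p 0.0145), H2-Q7 (-1.53, SE 0.31, adjusted p 0.00138) and H2-DMa (-1.14, SE 0.20, adjusted p 0.000353) became lower with age and remained called without mouse 26. H2-Aa in liver (-1.55, SE 0.49, adjusted p 0.0315) was -1.13, adjusted p 0.0646 without it.

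B6 adipose tissue changed the opposite way. The fall of H2-K1 at 4 weeks was lost at 10 weeks, a change of 1.08 (SE 0.23, adjusted p 0.00222), and H2-D1 (1.05, SE 0.22, adjusted p 0.00184), H2-Q2 (1.07, SE 0.22, adjusted p 0.00158), Tapbp (0.77, SE 0.16, adjusted p 0.00134), H2-Q7 (1.38, SE 0.44, adjusted p 0.0375) and H2-Q10 (3.22, SE 0.87, adjusted p 0.0129) changed in that direction. In islets the H2-M10.1 rise grew with age in both strains, by 0.74 (SE 0.15, adjusted p 0.002) in B6 and 0.83 (SE 0.15, adjusted p 0.000102) in BTBR. The B2m fall grew in BTBR islets (-0.58, SE 0.13, adjusted p 0.000894).

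The tissue contrast set the obesity difference in a tissue against the mean of the other 5 tissues at 10 weeks in 1 fit of all 240 arrays. Islets held 8 higher and 2 lower MHC genes in B6 (37.7% of all genes called) and 13 and 8 in BTBR (47.8%). Soleus held 0 and 11 (22.5%) and 2 and 15 (29.3%), gastrocnemius 1 and 6 (22.7%) and 1 and 12 (29.6%), and liver 3 and 4 (36.2%) and 6 and 10 (46.1%). Adipose tissue held 6 and 3 (34.1%) and 9 and 3 (36.2%), and hypothalamus 3 and 0 (14.6%) and 11 and 1 (26.3%).

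H2-K1 in BTBR islets stood 1.21 (SE 0.19, adjusted p 9.5e-09) above the other tissues and in B6 soleus -0.91 (SE 0.19, adjusted p 6.55e-05) from them. B2m in BTBR islets stood -0.65 (SE 0.14, adjusted p 3.71e-05) from the rest, so heavy and light chain parted there. H2-DMa in BTBR liver stood -1.29 (SE 0.13, adjusted p 8.49e-18) and in B6 islets 0.45 (SE 0.14, adjusted p 0.00546) from the rest. H2-Eb1 in BTBR stood -1.12 (SE 0.30, adjusted p 0.00214) in soleus, -1.03 (SE 0.28, adjusted p 0.00208) in gastrocnemius and 1.35 (SE 0.42, adjusted p 0.00654) in adipose tissue. Without mouse 26 the BTBR values were 1.07 for H2-K1 and -0.71 for B2m in islets, -1.26 for H2-DMa in liver, and -0.87, -0.82 and 1.24 for H2-Eb1 in soleus, gastrocnemius and adipose tissue (adjusted p 0.0047, 0.00378 and 0.00158). H2-DMb1 was lower in adipose tissue than elsewhere in B6 (-0.98, SE 0.18, adjusted p 1.35e-06) and BTBR (-0.65, SE 0.18, adjusted p 0.00142).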

How the data were processed

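Each of the 240 arrays, per the labels, compared cRNA of 1 mouse (2 dyes, Cy3 and Cy5) with a pool of its own strain and tissue. The deposited table holds the authors' processed log10 ratio for 39556 probes, with values limited to between -2 and 2 and none of the MHC values at a limit; how the authors corrected background and normalized is not given in the sources used here. Array medians lay between -0.0336 and 0.0325. Values were rescaled to log2. GEO's platform annotation, updated through RefSeq, gave 1 symbol to 23283 probes (58.86%) and none to 16273, and probes of a gene were averaged (19896 genes). Ratios carry no depth, so precision rests on the number of arrays.

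limma 3.58.1 (R 4.3.3) was fitted for each tissue (40 arrays, 8 group means), with Benjamini-Hochberg adjustment over all genes and a threshold of 0.05, two-sided. Contrasts were ob minus lean, its difference between strains and between ages, and, in 1 fit of all arrays with weights by tissue, between tissues. In simulated data for BTBR at 10 weeks, 100 of 19896 genes changed by 1 log2 unit and 100 by 0.5. Noise was independent, with 1 spread per gene for all groups. Of these changes 97% and 79% were recovered in islets, and 96% and 87% in gastrocnemius. Unchanged genes called numbered 11 in islets and 14 in gastrocnemius. The simulation held no outlying mouse, no unequal spread of groups and far fewer changed genes than were called here. Its recovery therefore cannot be carried over to the real arrays. The mice of a group are separate animals. A mouse number joins the tissues of 1 animal; same-mouse deviations correlated by 0.08 on average over 579 pairs of tissues, and by 0.139 (from -0.758 to 0.931) over the MHC genes alone, and the mouse was a random block in an alternative. The members and the gene lists were chosen with earlier results of these data known. Named with values are the anchors of each role, the largest changes past the threshold and up to 4 genes of a list. The largest changes were up to 6 each way in a comparison and 4 each way in a strain or age difference. For tissue differences only anchors were named. A few others were named after their values were seen. Alternatives were another probe choice, array centring, quantile normalization, only the groups compared, array weights, current symbols only, a filter on genes of low variance, and each mouse left out. Figures were drawn with matplotlib 3.10.9.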

Additional observations from a re-analysis of the deposited data

Results flagged for a closer look

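Of the 94 groups of 5 mice whose values are printed, 14 held a mouse whose gap to its nearest neighbour took more than 0.71 of the group's range, where chance alone is set to give about 0.05 of independent groups. These groups share mice and related genes, and many printed genes were chosen by the size of their change. The count is therefore not a test against that share. Mouse 26 accounts for 6 of the 14: B2m in islets (0.98), H2-Eb1 in soleus (2.23) and gastrocnemius (2.38), Tapbp (0.85) and Ciita (0.82) in liver and H2-Aa in adipose tissue (1.31). The others were spread over 8 animals: H2-Eb1 in soleus of lean B6 mouse 24 at 10 weeks (0.39) and ob B6 mouse 7 at 4 weeks (-1.61), H2-Eb1 in gastrocnemius of ob B6 mouse 1752 (0.16), H2-D1 in adipose tissue of lean B6 mouse 34 at 4 weeks (0.19), H2-DMb1 in adipose tissue of ob B6 mouse 9 (0.65), H2-Eb1 in hypothalamus of ob BTBR mouse 9 (0.23) and H2-T18 in adipose tissue of lean BTBR mouse 33 (-3.16) and ob BTBR mouse 10 (-0.032), both of 10 weeks.

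The obesity difference changed with age, by the test of that change, for several genes. In B6 adipose tissue the change (10 weeks minus 4 weeks) was 1.38 for H2-Q7 and 3.22 for H2-Q10. In B6 gastrocnemius it was -0.41 for H2-Ke6 and 0.30 for H2-M10.2, and in B6 islets -0.17 for H2-M10.3 and 0.74 for H2-M10.1. In BTBR adipose tissue it was -0.35 for H2-M1 and 0.31 for H2-M10.5. In BTBR muscle it was -2.12 for H2-Q7 and -1.84 for H2-Eb1 in gastrocnemius, and -2.18 for H2-Q7 in soleus. In BTBR hypothalamus it was -0.89 for H2-Eb1, -0.72 for H2-Ab1 and 0.35 for H2-Bl. In BTBR islets it was -0.58 for B2m, -0.52 for H2-T10, 0.36 for H2-M3 and 0.83 for H2-M10.1. In BTBR liver it was -1.73 for H2-Eb1, -1.55 for H2-Aa and 0.32 for H2-M1. Without mouse 26 the adjusted p of H2-Q7 in soleus was 0.0912, of H2-Aa in liver 0.0646, of H2-Eb1 in hypothalamus 0.0588 and of H2-Bl in hypothalamus 0.0527.

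The strains differed in the obesity difference (BTBR minus B6). At 10 weeks in adipose tissue this was -1.06 for H2-Bl, -0.32 for H2-M5 and 0.52 for H2-M9, and at 4 weeks -0.64 for H2-Bl. In gastrocnemius it was -0.31 for H2-M10.2 and 0.33 for H2-Ke6. In islets it was -0.56 for H2-M5, -0.41 for B2m, -0.40 for H2-Bl, -0.40 for H2-T10, 0.41 for H2-M10.1, 0.55 for H2-K1, 0.56 for H2-D1 and 0.61 for H2-M3. In liver it was -1.14 for H2-DMa, -0.73 for H2-Bl, -0.66 for H2-Q8, -0.46 for H2-Q5, 0.19 for H2-M2, 0.20 for H2-M10.5 and 0.22 for H2-M11. H2-M5 in adipose tissue had an adjusted p of 0.0948 without mouse 26. How well the probes match the alleles of each strain was not tested.

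Tissues differed from the mean of the other 5 at 10 weeks. The leading calls named next are the largest each way among the role anchors only, so other MHC genes may have differed more. The anchors are H2-K1, H2-D1, B2m, Tapbp, H2-Aa, H2-Ab1, H2-Eb1, Cd74, H2-DMa, H2-DMb1 and Ciita. In B6 the leading calls were H2-DMb1 (-0.98) and H2-Ab1 (0.90) in adipose tissue, H2-DMa in gastrocnemius (-0.34), H2-DMb1 in hypothalamus (0.38), Cd74 (-0.58) and H2-DMa (0.45) in islets, Tapbp (-0.31) and H2-DMb1 (0.39) in liver and H2-K1 in soleus (-0.91). In BTBR they were H2-DMb1 (-0.65) and H2-Eb1 (1.35) in adipose tissue, H2-Eb1 in gastrocnemius (-1.03), hypothalamus (0.91) and soleus (-1.11), B2m (-0.65) and H2-K1 (1.22) in islets and H2-DMa (-1.29) and B2m (0.49) in liver.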

How the results depend on the processing

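Gene by gene, the alternatives were followed only for ob minus lean of the role anchors. These are H2-K1, H2-D1, B2m, Tapbp, H2-Aa, H2-Ab1, H2-Eb1, Cd74, H2-DMa, H2-DMb1 and Ciita. None of their called differences reversed under any alternative run. Of 2640 results of these genes with 1 mouse left out, 2518 kept their side of the threshold, 99 lost the call and 23 gained it. Other named genes, and single strain, age and tissue differences, were not followed over all alternatives. Counts of called MHC genes moved most when the fit held only the groups compared: B6 gastrocnemius 8 at 4 weeks (3 with all groups) and 19 at 10 weeks (8), B6 soleus 8 at 4 weeks (1), B6 liver 6 (3) and 11 (7), BTBR at 4 weeks 0 in gastrocnemius (2), 0 in soleus (2) and 1 in liver (3), BTBR at 10 weeks 10 in gastrocnemius (21), 6 in soleus (20), 3 in hypothalamus (10) and 5 in adipose tissue (9), and the age contrast of BTBR 23 (48). Quantile normalization gave 5 in BTBR adipose tissue at 4 weeks (8), 6 in B6 gastrocnemius at 4 weeks (3), 4 in B6 soleus at 4 weeks (1), and in BTBR at 4 weeks 1 in gastrocnemius (2), 1 in hypothalamus (0) and 6 in liver (3), and 2 for the strain contrast at 4 weeks (1). Array weights gave, at 10 weeks, 12 in B6 (7) and 14 in BTBR (9) adipose tissue, 13 in B6 gastrocnemius (8) and 14 in B6 liver (7), and 1 in BTBR hypothalamus at 4 weeks (0). Array centring gave 1 in BTBR gastrocnemius at 4 weeks (2), current symbols only 1 in BTBR soleus at 4 weeks (2), and leaving out genes of low variance 1 in BTBR gastrocnemius, 2 in B6 soleus and 1 in BTBR soleus at 4 weeks. With 1 mouse left out the counts ranged, for B6 at 4 and 10 weeks and BTBR at 4 and 10 weeks, over 12 to 15, 14 to 15, 18 to 21 and 27 to 30 in islets, 1 to 6, 4 to 7, 1 to 4 and 18 to 26 in liver, 10 to 14, 5 to 8, 4 to 11 and 5 to 12 in adipose tissue, 0 to 3, 3 to 7, 0 to 4 and 17 to 24 in gastrocnemius, 0 to 2, 10 to 13, 1 to 2 and 17 to 22 in soleus, and 0 to 1, 0 to 1, 0 to 1 and 6 to 12 in hypothalamus. Of the counts of 5 or more, B6 gastrocnemius at 10 weeks (8) fell to 5 without lean mouse 20 or ob mouse 1822, to 4 without ob mouse 1751 and to 3 without lean mouse 22 or 48, BTBR adipose tissue at 4 weeks (8) to 5 without lean mouse 37 or 45 and to 4 without ob mouse 12 or 16, BTBR adipose tissue at 10 weeks (9) to 5 without ob mouse 4, B6 liver at 10 weeks (7) to 4 without lean mouse 22 and BTBR hypothalamus at 10 weeks (10) to 6 without lean mouse 26. The strain contrast ranged over 0 to 2 at 4 weeks and 22 to 31 at 10 weeks, the age contrast over 11 to 16 in B6 and 34 to 54 in BTBR. The tissue contrast called 47 in B6 and 91 in BTBR, 49 and 97 with the mouse as a replicate block, and 84 in BTBR without mouse 26, an alternative chosen after seeing the data. The cause of these moves was not tested. Signal over background could not be read from ratios, so a dim probe is not told from a steady gene.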
